A study of Mus musculus with 20 samples.

Results

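The comparison described here is the line-by-stage interaction in the mouse ovary, which is the difference between FL1 and ctrl in estrus minus the difference between FL1 and ctrl in diestrus. It asks for which genes the difference in ovarian mRNA between the high-fertility line and the unselected line depended on the stage of the estrous cycle. All 20 deposited libraries enter it, chosen by their labels alone, 5 from each of the groups ctrl estrus, FL1 estrus, ctrl diestrus and FL1 diestrus, and all 14154 genes that passed the filter on low counts were tested. A positive interaction means that FL1 relative to ctrl was higher in estrus than in diestrus, and a negative interaction means that it was lower. On the log2 scale the same number is the stage difference (estrus against diestrus) of FL1 minus that of ctrl.

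Each library was made from ovarian tissue of 1 female mouse with a labelled age of 77 days. Whether 1 or both ovaries of an animal went into a library is not stated, and an ovary below means the sample of 1 animal. FL1 is the Dummerstorf high-fertility line, obtained by long-term selection for litter size and litter weight, and ctrl (genotype WT in the labels) is the unselected line from the same outbred founders. Both are outbred populations and neither is a transgenic or knockout model, so animals of a line can differ genetically from each other. The stage was read from vaginal smears, and fat, oviduct and tunica albuginea were dissected away before RNA was extracted.

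In diestrus the ovary holds functional corpora lutea that make progesterone from cholesterol, while growing follicles are under the control of follicle-stimulating hormone. In estrus ovulation takes place or has just taken place, the ruptured follicles are remodelled, blood vessels grow into the new corpora lutea and the surface epithelium is repaired. A whole ovary therefore changes in its mixture of follicles, luteal cells, vessels and stroma from stage to stage, and in bulk RNA fewer cells of a type and less RNA per cell cannot be told apart.

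The libraries held 5991223 to 10352718 counts (median 6957533). Values are given as CPM, which are counts divided by the library total after scaling with edgeR's TMM factors. One library stood apart from its group, ctrl estrus replicate 5. Its median correlation with the other ctrl estrus libraries was 0.944, against 0.960 to 0.976 for every other library within its own group, and it detected the fewest genes (17484). Its summed level of 9 fat marker genes was 544 CPM, against 123 to 365 in the 19 other libraries. Over the 20 libraries the highest medians among these genes were 158 CPM for Plin4 and 67.3 CPM for Lipe, against 0.77 CPM for Adipoq. Ctrl estrus replicate 5 was also lowest in the sum of 8 ovarian identity genes (1108 CPM, others 1772 to 3937). For the corpus luteum genes it lay at 0.43, against -0.61 to -0.08 in the other ctrl estrus ovaries. This level is the median log2(CPM + 0.5) of genes centred on their means over all libraries. The reason for these differences was not tested, and the medians of the gene lists below are also given without this library. Markers of the ovary itself (Foxl2, Inha, Amhr2, Fshr, Cyp17a1, Zp3 and Gdf9) had counts in all 20 libraries, while Amh had 17 counts in all, in 9 libraries. The summed level of 10 oviduct genes was 6.26 to 19.4 CPM, mostly from Rsph1 (median 8.34 CPM), and the summed level of 8 neutrophil genes was 1.505 to 9.60 CPM. The library identifiers run in 1 block per group, so the order of preparation and the group cannot be told apart.

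Of the 14154 genes, 8 (0.0565%) passed the interaction test, 3 with a positive and 5 with a negative interaction (edgeR's quasi-likelihood test, Benjamini-Hochberg adjusted p of at most 0.05). At an unadjusted p of at most 0.05 there were 1654 genes (11.7% of those tested), 745 positive (5.26%) and 909 negative (6.42%). The single-stage comparisons in the same fit called many more genes. FL1 and ctrl differed in 531 genes in estrus (3.75%) and in 490 in diestrus (3.46%), and the stages differed in 909 genes in ctrl (6.42%) and in 1520 in FL1 (10.7%).

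The interaction itself was therefore called in very few of the genes whose line difference was called at a single stage. The line difference was called in 161 genes at both stages, of which 159 went the same way. It was called in 699 genes at 1 stage and not at the other. Of these, 6 also passed the interaction test at the adjusted threshold, against 8 of all 14154 genes. An unadjusted interaction p of at most 0.05 was found for 387 of them, against 1654 of all genes. The 699 genes were chosen on these same libraries for a call at 1 stage only. That choice favours a small interaction p, so these counts are not independent evidence. In 535 of the 699 genes the line difference had the same sign at both stages. Over all 14154 genes the signs were opposite in 6334 (44.8%), so a shared sign was also common without any call. The same background applies to the 159 of 161 genes called at both stages. These counts describe the estimates and are not a test. Likewise 1100 genes differed between stages in FL1 and not in ctrl, and 5 of them passed the interaction test. Over all tested genes the log2FC of FL1 against ctrl in estrus and in diestrus, which share no library, had a Pearson correlation of 0.56 across 14154 genes. This describes genes within 1 experiment and genes are not independent replicates.

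**Figure D1:**
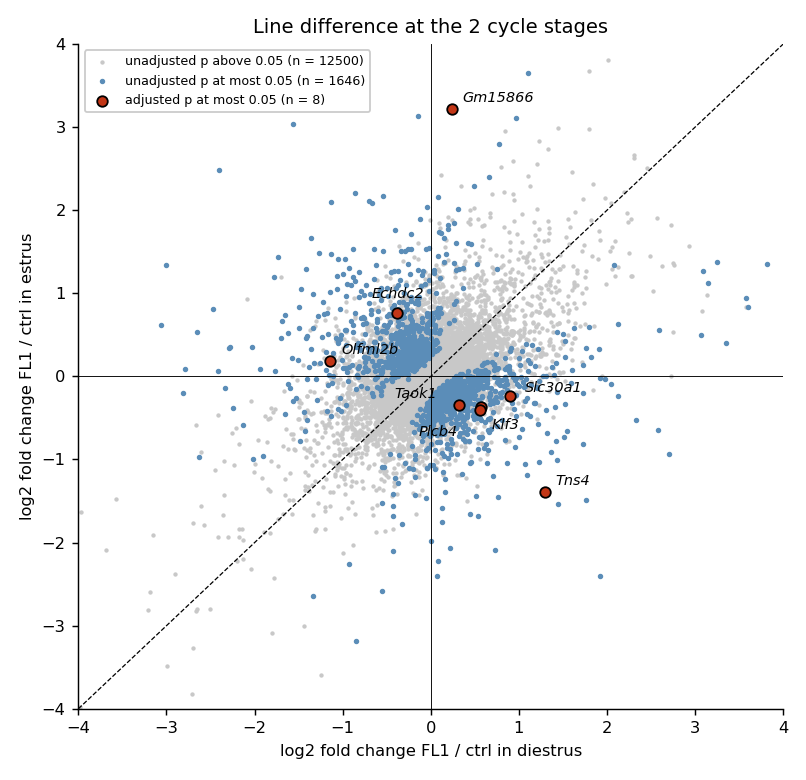
Log2 fold change of FL1 against ctrl in diestrus (horizontal axis) and in estrus (vertical axis), 1 point per tested gene. Points on the dashed diagonal have an interaction of 0, the 8 genes with an adjusted interaction p of at most 0.05 are named, and 62 genes lie outside the axes, which end at 4. Of the 8 named genes, 7 have line differences of opposite sign at the 2 stages, against 44.8% of all tested genes, and Gm15866 lies near 0 in diestrus. The 8 genes were chosen by the difference between the stages, which favours opposite signs.

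The number of calls was sensitive to single animals. Leaving out 1 library at a time gave 0 to 15 genes. No gene remained without FL1 diestrus replicate 3, FL1 diestrus replicate 4, FL1 estrus replicate 4, FL1 estrus replicate 5, ctrl diestrus replicate 4 or ctrl estrus replicate 3 (edgeR, between 1452 and 1689 genes still had an unadjusted p of at most 0.05 in these fits). A single gene remained without ctrl diestrus replicate 2, and 2 without FL1 diestrus replicate 1. Without ctrl estrus replicate 5, the library that stood apart, 15 genes passed and all 8 were among them. DESeq2's Wald test called 148 genes, the 8 included, and limma-voom called 31, with 7 of the 8.

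Among the 5 genes with a negative interaction, Tns4 and Taok1 had line differences that were called in opposite directions at the 2 stages. The larger values were those of Tns4 (tensin 4, a focal adhesion protein, chromosome 11, 99065678 to 99089306, minus strand, GRCm38). Tns4 was at 9.51, 8.94, 5.74, 5.74 and 7.03 CPM in ctrl estrus and at 2.50, 1.35, 2.93, 3.39 and 3.74 CPM in FL1 estrus. In diestrus the order turned round, with 1.70, 3.83, 2.85, 1.48 and 2.46 CPM in ctrl and 4.44, 6.02, 4.72, 10.5 and 4.50 CPM in FL1. The lines did not overlap at either stage, with FL1 below every ctrl ovary in estrus and above every ctrl ovary in diestrus. FL1 was 2.62-fold lower in estrus (adjusted p = 0.0137) and 2.45-fold higher in diestrus (adjusted p = 0.0247), and the interaction was -2.68 ± 0.45 on the log2 scale (SE, adjusted p = 0.0328, edgeR). It passed in 14 of the 20 leave-one-out fits, with values between -2.90 and -2.39.

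Taok1, a serine/threonine kinase upstream of stress-activated MAP kinases (chromosome 11, 77529162 to 77607815, minus strand), showed the same crossing at a high level of expression. Its CPM was 285, 278, 314, 292 and 284 in ctrl estrus, 203, 235, 258, 214 and 231 in FL1 estrus, 221, 253, 274.2, 225 and 275 in ctrl diestrus, and 330, 282, 320, 323 and 305 in FL1 diestrus. Again no FL1 ovary overlapped with ctrl at either stage, although the steps were small. FL1 was 1.27-fold lower in estrus (adjusted p = 0.0206) and 1.25-fold higher in diestrus (adjusted p = 0.0346), with an interaction of -0.67 ± 0.12 (SE, adjusted p = 0.0351, edgeR), which passed in 9 of 20 leave-one-out fits. Its paralogue Taok3 was at rank 20, with an interaction of -0.60 ± 0.13 (SE) and an adjusted p of 0.0754.

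Plcb4, a phospholipase C that acts downstream of G protein-coupled receptors (chromosome 2, 135659011 to 136014593, plus strand), was at 22.6, 26.5, 27.9, 26.1 and 25.7 CPM in ctrl estrus and at 16.4, 21.4, 21.6, 18.9 and 18.6 CPM in FL1 estrus. In diestrus it was at 17.7, 17.7, 19.4, 16.4 and 24.3 CPM in ctrl and at 32.2, 23.4, 26.4, 27.6 and 31.1 CPM in FL1. The lines were separate in estrus and overlapped in diestrus through 1 ctrl ovary. The interaction was -0.97 ± 0.18 (SE, adjusted p = 0.0360, edgeR). It was made up of a log2FC of -0.41 in estrus (adjusted p = 0.0728) and of 0.56 in diestrus (adjusted p = 0.0110), and it passed in 6 of 20 leave-one-out fits.

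In the remaining pair with a negative interaction, Klf3 and Slc30a1, the line difference was called in diestrus and not in estrus. Klf3 encodes a Krüppel-like transcriptional repressor (chromosome 5, 64803388 to 64832901, plus strand). It lay between 143 and 171 CPM in FL1 diestrus and between 92.3 and 122 CPM in ctrl diestrus, with no overlap. In estrus ctrl was at 107, 115, 114, 95.4 and 140 CPM and FL1 at 65.6, 87.7, 99.0, 89.6 and 98.6 CPM, so the highest FL1 ovaries reached into the ctrl range. The log2FC was 0.57 in diestrus (adjusted p = 0.00481) and -0.37 in estrus (adjusted p = 0.0725), with an interaction of -0.94 ± 0.16 (SE, adjusted p = 0.0328, edgeR, 12 of 20 leave-one-out fits). The gene C230096K16Rik overlaps it on the same strand and had an interaction of -0.55.

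Slc30a1 encodes a zinc exporter of the plasma membrane (chromosome 1, 191906767 to 191913247, plus strand). The FL1 diestrus ovaries were at 65.8, 75.4, 73.4, 96.5 and 58.0 CPM, above all 15 other ovaries, which lay between 29.8 and 56.6 CPM. The log2FC was 0.90 in diestrus (adjusted p = 0.000760) and -0.24 in estrus (adjusted p = 0.435), with an interaction of -1.14 ± 0.21 (SE, adjusted p = 0.0360, edgeR, 8 of 20 leave-one-out fits).

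Among the 3 genes with a positive interaction, the largest value belonged to Gm15866, an unnamed RNA annotated as antisense (chromosome 5, 43549928 to 43601731, minus strand). It had 2 to 6 counts in each ctrl estrus library (0.261 to 0.565 CPM) and 15 to 52 counts in each of the other 15 libraries (2.25 to 7.44 CPM). Ctrl estrus was thus the only group that departed, by 9.32-fold from FL1 estrus (adjusted p = 2.12e-05) and by 8.75-fold from ctrl diestrus, and the interaction was 2.98 ± 0.50 (SE, adjusted p = 0.0328, edgeR, 13 of 20 leave-one-out fits). It did not pass by limma-voom (adjusted p = 0.0620). Gm15866 lies opposite C1qtnf7, whose own interaction was 0.69 ± 0.23 (SE, adjusted p = 0.225). The strand setting of the counting is not given in the sources used here, so reads of the overlapping pair cannot be told apart.

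Olfml2b, which encodes a secreted olfactomedin-domain protein (chromosome 1, 170644532 to 170682789, plus strand), had its low values in FL1 diestrus, at 28.8, 34.4, 40.3, 27.0 and 36.3 CPM. The 15 other ovaries lay between 48.0 and 85.8 CPM, without overlap. The log2FC of FL1 against ctrl was -1.14 in diestrus (adjusted p = 0.000231) and 0.19 in estrus (adjusted p = 0.609), and the interaction was 1.33 ± 0.23 (SE, adjusted p = 0.0351, edgeR, 10 of 20 leave-one-out fits).

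Echdc2, a mitochondrial enoyl-CoA hydratase family member (chromosome 4, 108165437 to 108179308, plus strand), was highest in FL1 estrus, at 93.8, 101, 145, 117 and 133 CPM. Ctrl estrus lay at 51.2, 81.8, 61.3, 68.3 and 85.4 CPM, below every FL1 estrus ovary. In diestrus ctrl (40.0 to 60.8 CPM) and FL1 (29.2 to 43.6 CPM) overlapped. The stage difference was 3.09-fold in FL1 and 1.40-fold in ctrl, and the interaction was 1.15 ± 0.22 (SE, adjusted p = 0.0431, edgeR, 8 of 20 leave-one-out fits).

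**Figure D2:**
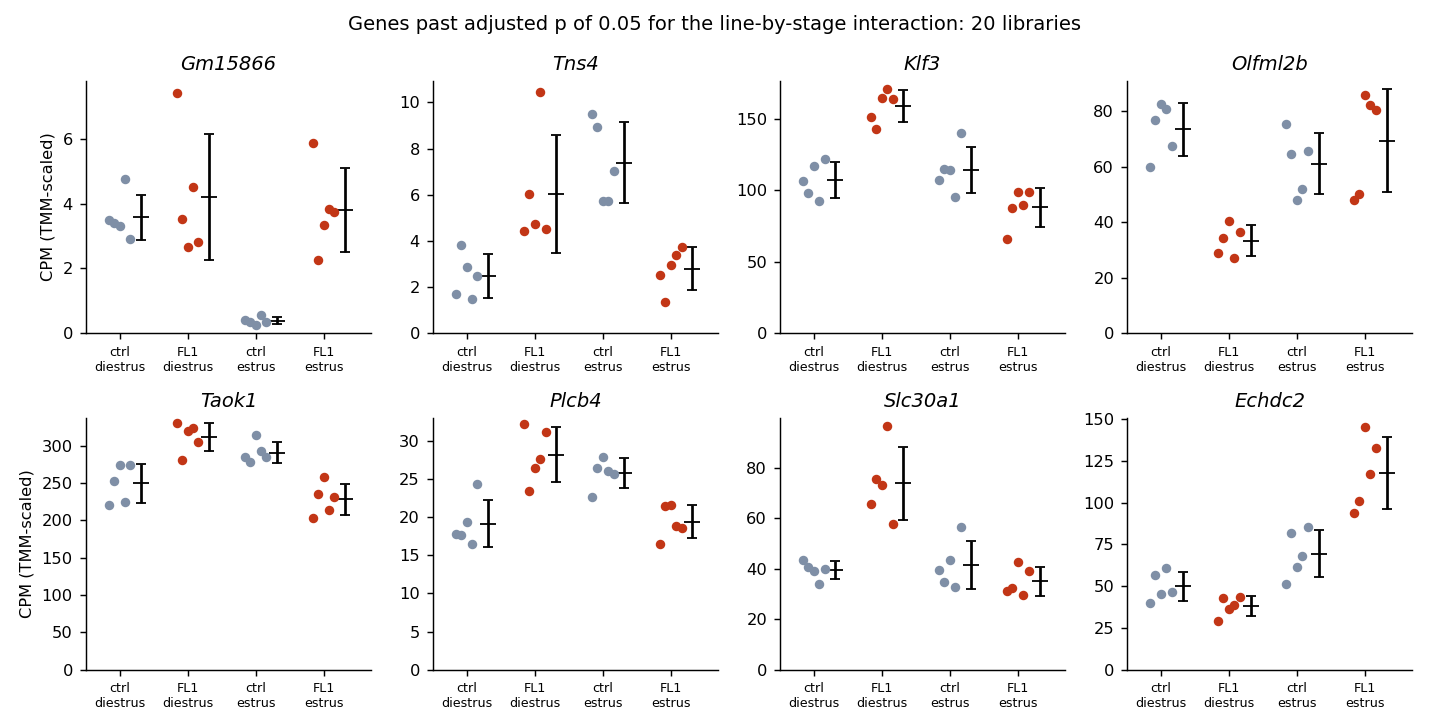
CPM (vertical axes, from 0) of the 8 genes with an adjusted interaction p of at most 0.05, 1 point per library in the 4 groups, with mean and SD (n = 5) drawn beside the points. The lines cross between stages for Tns4, Taok1, Plcb4 and Klf3, 1 group departs from the other 3 for Gm15866 (ctrl estrus), Olfml2b and Slc30a1 (FL1 diestrus), and FL1 estrus is highest for Echdc2.

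The 22 genes that came next by p had adjusted p-values between 0.0535 and 0.0978 and are described by value only. Of these, 5 had a positive and 17 a negative interaction. Signalling and transcription genes were among those with a negative value. Smad1, a transducer of BMP and AMH signals, was at 91.3, 63.0, 89.9, 96.7 and 82.4 CPM in FL1 diestrus and between 39.1 and 65.9 CPM in the 15 other ovaries. Its log2FC was 0.81 in diestrus (adjusted p = 0.00109) and -0.18 in estrus (adjusted p = 0.529), with an interaction of -0.99 ± 0.19 (SE, adjusted p = 0.0535, edgeR).

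Fzd4, a receptor for WNT ligands and norrin, had the same form, with 79.7, 54.9, 77.0, 88.6 and 84.9 CPM in FL1 diestrus against 35.8 to 49.6 CPM in all others, and an interaction of -0.86 ± 0.18 (SE, adjusted p = 0.0754). Lrp8, a receptor for apolipoprotein E and reelin, was at 57.7, 23.5, 39.4, 52.9 and 35.5 CPM in FL1 diestrus and at no more than 19.9 CPM elsewhere (interaction -1.42 ± 0.31, SE, adjusted p = 0.0820). For Sv2c, a synaptic vesicle protein, FL1 diestrus held 12.5, 5.88, 12.1, 11.2 and 2.33 CPM and the other groups 0.176 to 2.30 CPM (interaction -3.22 ± 0.72, SE, adjusted p = 0.0921). In these genes FL1 diestrus was the group that stood apart.

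FL1 estrus stood apart in another group of these genes. Rims4, a presynaptic active zone protein, lay between 99.5 and 121 CPM in FL1 estrus and between 144 and 226 CPM in the 15 others (interaction -0.78 ± 0.15, SE, adjusted p = 0.0535). Lrrc47 lay between 31.8 and 43.0 CPM in FL1 estrus and between 44.5 and 64.8 CPM in the others (interaction -0.67 ± 0.14, SE, adjusted p = 0.0754), and the adaptor gene Gab3 between 2.41 and 4.26 CPM against 5.43 to 9.78 CPM (interaction -1.28 ± 0.28, SE, adjusted p = 0.0754). Hsd17b2, which inactivates estradiol and testosterone by oxidation, was at 21.6, 13.7, 11.1, 11.95 and 11.65 CPM in FL1 estrus and between 1.93 and 7.21 CPM in the 15 others (interaction 1.754 ± 0.40, SE, adjusted p = 0.0978).

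The lines crossed without overlap at both stages in Ptprm, a receptor tyrosine phosphatase of cell contacts (interaction -0.78 ± 0.16, SE, adjusted p = 0.0724). The de novo DNA methyltransferase Dnmt3a had an interaction of -0.70 ± 0.15 and the Krüppel-like factor Klf9 one of -0.62 ± 0.13 (SE, adjusted p = 0.0754 for both). Further genes in this group were Styx (2.13), Rps3 (0.68), Cbx6 (-0.57), Itga9 (-0.73), Taok3 (-0.60), Dynll2 (-0.60), Kalrn (-1.60), Klk1 (4.60), Bcl9l (-0.70) and Pgbd5 (-1.31), with the interaction in brackets. Klk1 rested on 0 to 5 counts in each ctrl estrus library, and 60.2% of the 31-nt words at the transcript ends of Styx occur in other genes (31.6% for Klk1), so both counts are uncertain.

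Across the lists, the median interaction was furthest from 0 for genes of the surface epithelium and of cholesterol synthesis and uptake, with and without ctrl estrus replicate 5. In each paragraph below the counts are at an unadjusted p of at most 0.05, to be read against 5.26% positive and 6.42% negative over all genes, whose median interaction was 0.01. At the adjusted threshold DESeq2 called 148 of 15534 genes and limma-voom 31 of 14154. Calls of list members by these tools are to be read against those counts. No member of the lists described below passed the adjusted test by edgeR unless it is named as such.

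The genes of cholesterol synthesis and uptake lay lower in FL1 relative to ctrl in estrus than in diestrus. Of 24 members tested, 22 had a negative interaction, 10 of them at an unadjusted p of at most 0.05 and none positive, and the median was -0.65. The line medians were -0.29 in estrus and 0.37 in diestrus, and the stage medians were -0.56 in ctrl and -1.26 in FL1. Without ctrl estrus replicate 5 the median interaction was -0.40, with 9 members at an unadjusted p of at most 0.05. DESeq2 called 3 members at the adjusted threshold and limma-voom none.

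The median centred log2 level of the 24 cholesterol genes was 0.89, 0.52, 0.81, 0.49 and 0.63 in FL1 diestrus and -0.67, -0.69, -0.27, -0.59 and -0.47 in FL1 estrus. It was -0.13, 0.44, 0.83, 0.33 and -0.50 in ctrl diestrus and -0.29, -0.41, -0.79, -0.57 and 0.31 in ctrl estrus. The stages were therefore far apart in FL1 and overlapped in ctrl, where ctrl diestrus replicate 5 and ctrl estrus replicate 5 lay on the side of the other stage.

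**Figure D3:**
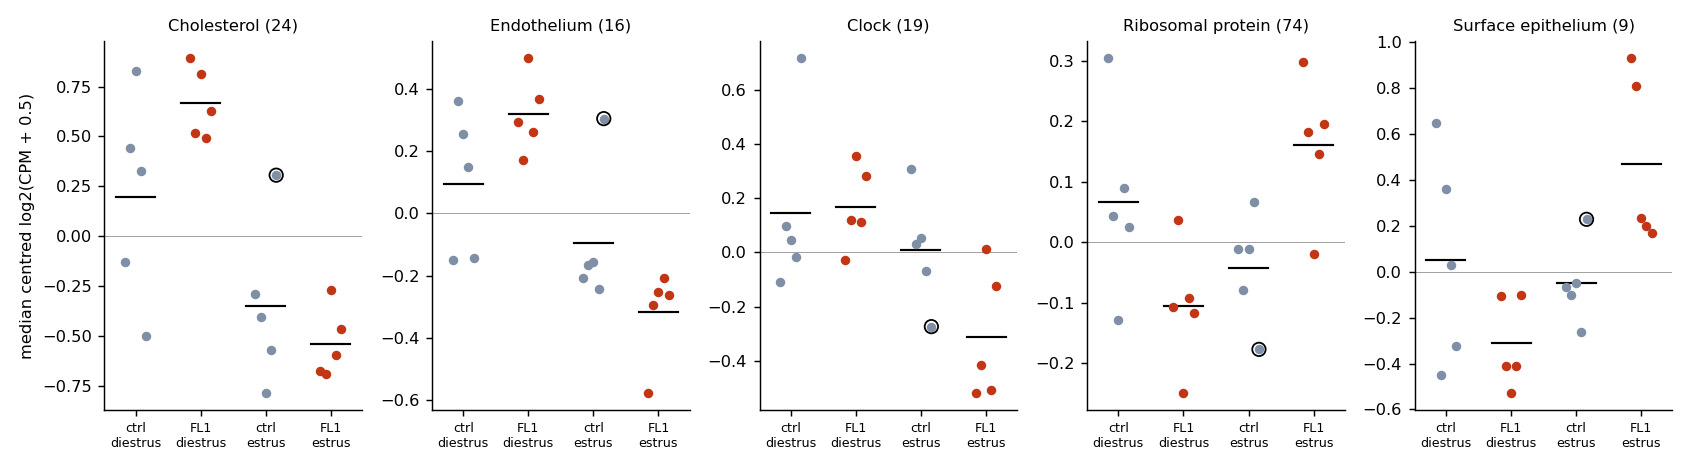
Level of 5 gene lists in each ovary, as the median over the tested members of log2(CPM + 0.5) after each gene was centred on its mean over the 20 libraries (vertical axes). Points are ovaries, bars are group means (n = 5) and ctrl estrus replicate 5 is ringed. The FL1 groups are further apart than the ctrl groups for cholesterol and endothelium genes, and the ringed library lies at 0.31 for both, above the other ctrl estrus ovaries.

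The members nearest to the adjusted threshold acted at different steps. Stard4, a cytosolic sterol carrier, was at 22.6 to 30.4 CPM in FL1 estrus, 29.7 to 42.7 CPM in ctrl estrus, 31.3 to 65.2 CPM in ctrl diestrus and 61.1 to 84.0 CPM in FL1 diestrus, with an interaction of -0.89 ± 0.22 (SE, adjusted p = 0.114, edgeR). Insig1, which retains the sterol sensor SCAP in the endoplasmic reticulum, had an interaction of -1.12 ± 0.28 (SE, adjusted p = 0.123). Squalene epoxidase (Sqle, -1.004), mevalonate decarboxylase (Mvd, -1.06), the synthase Hmgcs1 (-0.87), the lysosomal carrier Npc2 (-0.72) and phosphomevalonate kinase (Pmvk, -0.68) had interactions in the same direction at an unadjusted p of at most 0.05. Npc1, the membrane partner of Npc2 in lysosomal export, was at 0.21 ± 0.14 (SE), and its log2FC was negative at both stages (-0.43 in estrus and -0.64 in diestrus).

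Hsd17b7, an enzyme of cholesterol synthesis that also makes estradiol in luteal cells, had the largest stage range of these genes. It was at 3280, 1984, 2525, 2886 and 2035 CPM in FL1 diestrus and at 415, 640, 1029, 900 and 90.8 CPM in ctrl diestrus, while in estrus both lines lay between 40.1 and 128 CPM. The lines were separate in diestrus and overlapped in estrus. FL1 was 4.13-fold higher in diestrus (adjusted p = 0.00547) and 1.06-fold lower in estrus (adjusted p = 0.939), and the interaction was -2.14 ± 0.58 (SE, adjusted p = 0.142, edgeR), between -2.63 and -1.86 over the leave-one-out fits.

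**Figure D4:**
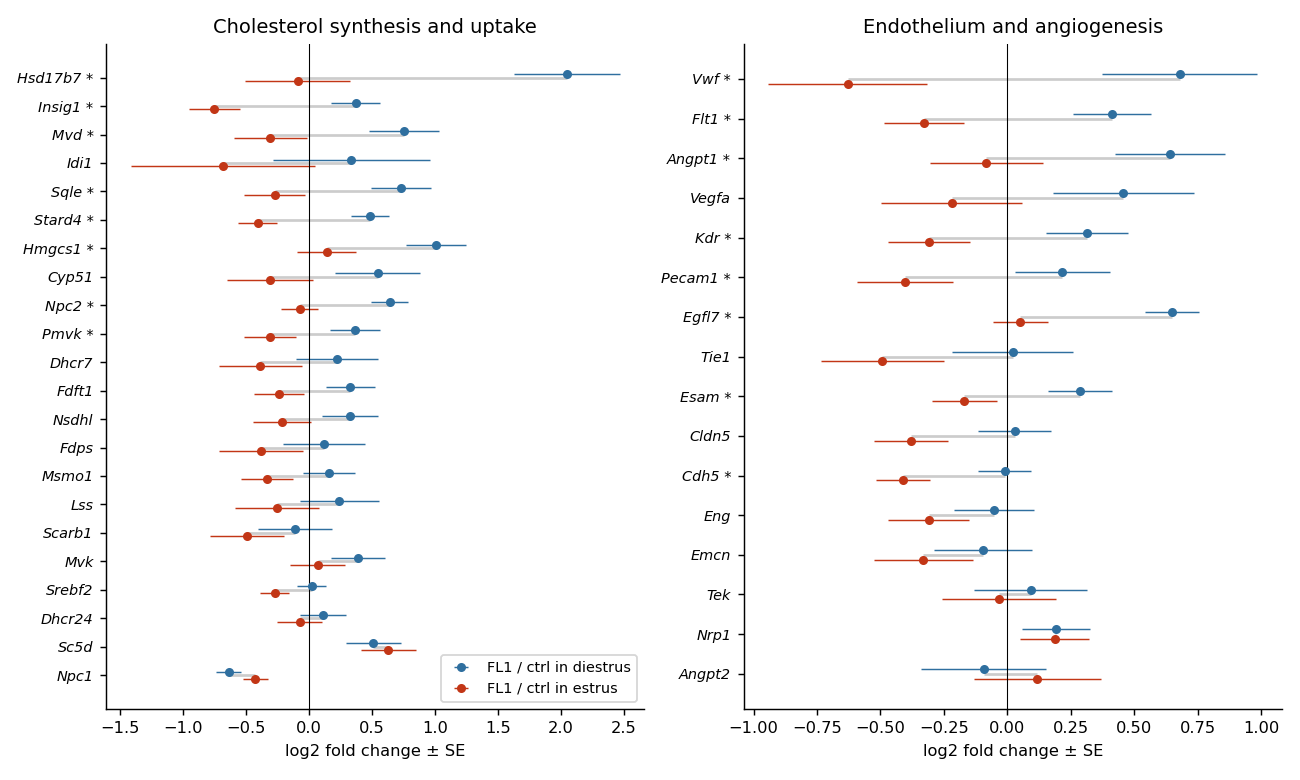
Log2 fold change of FL1 against ctrl with its SE (horizontal axes) in diestrus (blue) and estrus (red) for 22 members of the cholesterol list and the 16 tested members of the endothelium list, sorted by interaction. Asterisks mark an unadjusted interaction p of at most 0.05, for 8 of 22 and 8 of 16 members shown. For 20 and 15 members the red point lies to the left of the blue one.

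Because the cholesterol genes share a transcriptional regulator, SREBP2, their promoters were searched for the letters TCACNCCAC, one form of the sterol regulatory element, on both strands. Of the 24 members, 15 had a window (250 bases before to 50 after the start, RefSeq, GRCm38.p6), and Hmgcs1 was the only one with a match, against 1.24% of all 32851 windows. A gene can have more than 1 window and counted if any matched, so the count of genes and the share of windows differ in unit. The match is shown in capitals, on the plus strand at chr13:119690204-119690233, upstream of the Hmgcs1 start.
Hmgcs1: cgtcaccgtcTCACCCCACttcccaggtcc
It begins at position -137 from the start, and for the other members the result says only that these letters were not in the window.

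The endothelial genes also had mostly negative interactions, with smaller values. Of 16 tested, 15 had a negative interaction, 8 of them at an unadjusted p of at most 0.05 and none positive, with a median of -0.48 (-0.35 and 7 members without ctrl estrus replicate 5). The line medians were -0.31 in estrus and 0.20 in diestrus. By the adjusted test within FL1, 10 of the 16 were lower in estrus than in diestrus, and within ctrl none was called in either direction, which is a count of calls and not a test of the difference. Over all 14154 genes, 823 were called lower in estrus within FL1 and 376 within ctrl. DESeq2 called 1 member for the interaction and limma-voom none.

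Egfl7, secreted by endothelial cells, was at 90.9, 72.6, 79.8, 70.4 and 67.8 CPM in FL1 diestrus and between 41.0 and 56.5 CPM in the 15 others, with an interaction of -0.60 ± 0.15 (SE, adjusted p = 0.123, edgeR). The VEGF receptors Flt1 and Kdr had interactions of -0.74 ± 0.22 and -0.62 ± 0.23 (SE, adjusted p = 0.177 and 0.275), and von Willebrand factor (Vwf) one of -1.31 ± 0.44 (adjusted p = 0.228). For the junction proteins Cdh5 and Pecam1 the values were -0.40 ± 0.15 and -0.62 ± 0.26 (SE). Angpt2 (0.21) and Nrp1 (0.00) did not share the direction or the size. In ctrl estrus replicate 5 the median centred log2 level was 0.31 for the endothelial genes as for the cholesterol genes, against -0.24 to -0.16 for the endothelial genes in the other ctrl estrus ovaries.

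Genes of the ovarian surface epithelium, in samples whose tunica albuginea and oviduct had been dissected away, had interactions of the opposite sign. How much surface epithelium stayed in each sample was not measured. All 9 members had a positive interaction, 5 at an unadjusted p of at most 0.05, with a median of 0.82 (1.08 and 7 members without ctrl estrus replicate 5, and as few as 3 members in 6 of the other leave-one-out fits). Their line medians were 0.69 in estrus and -0.23 in diestrus. By summed level, the FL1 estrus ovaries were at 244, 250, 153, 154 and 147 CPM. Of these, replicates 3, 4 and 5 lay within the ctrl estrus range of 114 to 159 CPM. Ctrl diestrus lay between 96.6 and 192 CPM and FL1 diestrus between 90.5 and 131 CPM. No member passed the adjusted test by edgeR, DESeq2 or limma-voom.

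The keratins Krt18, Krt7 and Krt19 had interactions of 1.12 ± 0.33, 1.44 ± 0.44 and 0.91 ± 0.43 (SE, adjusted p = 0.183, 0.185 and 0.411, edgeR). Krt7 was at 20.7, 30.3, 12.6, 16.5 and 14.4 CPM in FL1 estrus and at 5.30, 7.71, 6.45, 3.82 and 10.7 CPM in FL1 diestrus, without overlap. In ctrl it was at 8.44, 11.9, 9.78, 10.5 and 15.5 CPM in estrus and at 17.2, 5.20, 13.8, 10.9 and 6.92 CPM in diestrus, with full overlap. Upk1b, a uroplakin of the mesothelium, differed in diestrus (log2FC -2.33, adjusted p = 0.00672) and not in estrus (-0.14), while Upk3b had a log2FC of 0.69 in estrus (adjusted p = 0.0663) and of 0.03 in diestrus.

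The 74 tested genes of cytosolic ribosomal proteins had a median interaction of 0.38 (0.35 without ctrl estrus replicate 5), with 71 positive values. At an unadjusted p of at most 0.05 there were 21 positive and 2 negative members. The line medians were 0.24 in estrus and -0.15 in diestrus. For the line difference itself, 6 members were called higher and 6 lower in FL1 in estrus, against 241 and 290 of all 14154 genes. In diestrus 5 were called lower and 0 higher, against 212 and 278 of all genes. Rps3 was at 833, 844, 1037, 845 and 953 CPM in ctrl estrus and at 1582, 1545, 1155, 1399 and 1471 CPM in FL1 estrus, without overlap, and in diestrus the lines overlapped at 945 to 1295 CPM. Its log2FC was 0.66 in estrus (adjusted p = 0.000299) and -0.01 in diestrus, with an interaction of 0.68 ± 0.14 (SE, adjusted p = 0.0754). Rpl41 (0.74 ± 0.18), Rpl13a (0.57 ± 0.16) and Rpl37a (0.41 ± 0.12) followed.

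For 21 of the 74 ribosomal protein genes at least 50% of the 31-nt words at the transcript ends occur in other genes, mostly copies, and the remaining 53 had a median of 0.37. The 2 negative members at this threshold were Rpl23a (-0.63) and Rps18 (-2.30), and for Rps18 the SD in ctrl estrus (41.5 CPM) exceeded its mean (23.4 CPM). Short transcripts in general had the more positive interactions, with a Spearman correlation of -0.17 between interaction and median transcript length over 14145 genes. The part of transcript length in the ribosomal values was not tested. DESeq2 called 2 members at the adjusted threshold, both positive, and limma-voom 1.

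Genes of the circadian clock and its outputs had a median interaction of -0.32 over 19 members (-0.35 without ctrl estrus replicate 5), 5 of them negative and 1 positive at an unadjusted p of at most 0.05. The median was -0.54 without ctrl diestrus replicate 5, and -0.20 without FL1 diestrus replicate 3. By the adjusted test of the line difference, 3 members were called lower in FL1 in estrus and none higher, and 1 was called higher in diestrus and none lower. Over all 14154 genes these calls were 290 lower and 241 higher in estrus, and 278 higher and 212 lower in diestrus. The clock repressor Per2 was at 10.98, 11.6, 7.56, 8.56 and 11.4 CPM in ctrl estrus and at 1.91, 2.10, 6.39, 2.80 and 4.38 CPM in FL1 estrus, without overlap. In diestrus ctrl lay between 6.76 and 20.7 CPM and FL1 between 10.8 and 15.7 CPM. The log2FC was -1.46 in estrus (adjusted p = 0.00732) and -0.06 in diestrus (adjusted p = 0.960), and the interaction was -1.41 ± 0.42 (SE, adjusted p = 0.180, edgeR).

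The PAR-domain transcription factors Tef, Hlf and Dbp, which are outputs of the clock, had interactions of -0.63 ± 0.19, -0.86 ± 0.36 and -1.10 ± 0.48 (SE, adjusted p = 0.193, 0.344 and 0.362). Nfil3, a repressor that competes with them for the same sites, had the opposite sign, 0.78 ± 0.31 (adjusted p = 0.310), and the repressor Nr1d1 had -0.83 ± 0.38 (adjusted p = 0.388). The activators Clock (-0.10) and Arntl (0.22) and the repressors Cry1 (0.03) and Bhlhe40 (-0.02) were close to 0. No member passed by DESeq2 or limma-voom. Samples were collected at a fixed time of day according to the study's methods.

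The E-box CACGTG, bound by CLOCK and ARNTL and read the same on both strands, was found in a window of 5 of the 16 clock members that had one (Per1, Cry1, Ciart, Tef and Bhlhe41), against 7.15% of all windows. Here too a gene counted if any of its windows matched, so the count and the share differ in unit. Tef is shown because it had the smallest p of these 5, with the E-box in capitals, on the plus strand at chr15:81802534-81802563, upstream of 1 of the RefSeq starts and inside the gene as GENCODE annotates it.
Tef: gtgctgtggctcCACGTGctgcagctggca
The E-box begins at position -127 from that RefSeq start, and a match is a description of the letters and not of binding.

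In the steroid pathway the interactions had different signs, and DESeq2 called 1 member in each direction. Of 15 members, 3 were positive and 1 negative at an unadjusted p of at most 0.05, and the median was 0.17 (0.06 without ctrl estrus replicate 5). The members with small p were enzymes that convert or inactivate steroids. Beside Hsd17b2 and Hsd17b7 above, Hsd11b1, which regenerates corticosterone, was at 3.29, 3.40, 2.36, 2.97 and 1.17 CPM in FL1 diestrus and between 3.87 and 12.6 CPM elsewhere, with an interaction of 1.27 ± 0.46 (SE, adjusted p = 0.276). Akr1c18, which inactivates progesterone, ran from 1883 to 12790 CPM in ctrl estrus, and its interaction was 1.197 ± 0.50 (adjusted p = 0.344).

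Other proteins on the way to progesterone and the estrogens had an unadjusted interaction p above 0.05. The values were -0.85 ± 0.52 for the cholesterol importer Star, -0.21 for Cyp11a1, -0.14 for Hsd3b1, 1.19 ± 0.70 for Cyp17a1 and 0.17 ± 0.56 for the aromatase Cyp19a1 (SE). With standard errors of this size, an interaction of 1 on the log2 scale could not have been told from 0 in Star, Cyp17a1 or Cyp19a1.

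Among the 12 hormone receptors, 1 was positive and 3 were negative at an unadjusted p of at most 0.05, with a median of -0.18 (-0.20 without ctrl estrus replicate 5), and no member passed the adjusted test by edgeR, DESeq2 or limma-voom. The leptin receptor Lepr was at 10.1, 18.7, 24.9, 12.9 and 16.2 CPM in ctrl estrus and at 6.75, 7.50, 8.07, 9.89 and 7.27 CPM in FL1 estrus, without overlap, and at 2.67 to 8.91 CPM in diestrus. Its interaction was -1.08 ± 0.41 (SE, adjusted p = 0.297). The LH receptor Lhcgr was at 593, 341, 636, 681 and 696 CPM in FL1 diestrus and at 127, 243, 358, 287 and 81.5 CPM in ctrl diestrus, and in estrus both lines lay between 47.8 and 123 CPM. The lines overlapped in diestrus through 1 FL1 ovary. Its log2FC was 1.43 in diestrus (adjusted p = 0.00490) and 0.53 in estrus (adjusted p = 0.348), with an interaction of -0.89 ± 0.40 (SE, adjusted p = 0.387).

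The prolactin receptor Prlr (-0.60 ± 0.28) and estrogen receptor beta (Esr2, 0.50 ± 0.23) were the other members at an unadjusted p of at most 0.05. The FSH receptor Fshr was at 0.38 ± 0.35, the progesterone receptor Pgr at 1.00 ± 0.49 and estrogen receptor alpha (Esr1) at -0.50 ± 0.25 (SE). For Esr1 the line difference was called in estrus (log2FC -0.74, adjusted p = 0.0202) and not in diestrus (-0.24, adjusted p = 0.579), and the interaction did not show that these differ (adjusted p = 0.453, edgeR).

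Of 21 genes of AMH, BMP and SMAD signalling, 2 were negative and none positive at an unadjusted p of at most 0.05, with a median of 0.05 (0.00 without ctrl estrus replicate 5). These were the transducers Smad1, described above, and Smad3 (-0.35 ± 0.12, SE, adjusted p = 0.223). DESeq2 and limma-voom each called 1 member, negative. The ligands Bmp2 (0.51) and Bmp4 (0.43) and the receptors Amhr2 (0.07), Bmpr1a (-0.17) and Bmpr2 (0.05) had no interaction at this threshold. In the activin group (median 0.12, and 0.10 without ctrl estrus replicate 5), the binding protein follistatin (Fst) was at 1.24 ± 0.42 (SE, adjusted p = 0.232), from a log2FC of 1.28 in estrus (adjusted p = 0.0154) and 0.04 in diestrus, and the subunits Inha (0.25), Inhba (0.69) and Inhbb (0.39) were smaller against their error.

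The list of granulosa and somatic fate genes had 4 negative and 1 positive member of 18 at an unadjusted p of at most 0.05 and a median of 0.13 (0.09 without ctrl estrus replicate 5). The granulosa regulator Foxl2 had an interaction of -0.69 ± 0.22 (SE, adjusted p = 0.209), and without ctrl estrus replicate 5 it passed (-0.84, adjusted p = 0.0302). For Foxl2 in diestrus, the study reported a positive line difference by sequencing. Its qPCR value, on a larger number of animals, was negative and carried no mark of significance. Across the genes it checked, the study reported a high correlation between sequencing and qPCR. The other members at an unadjusted p of at most 0.05 were Gata6 (-0.62), the female-pathway signal Wnt4 (-0.90), Runx2 (-0.82) and the nuclear receptor Nr0b1 (2.07 ± 0.63, SE, adjusted p = 0.185). Beside Fzd4 and Wnt4, Wnt5a (-0.62) and Dkk3 (-0.37) were negative in the WNT list, which had 4 negative and no positive of 16 (median -0.13, and -0.19 without ctrl estrus replicate 5). In the insulin and IGF list (median -0.04, and -0.09 without that library) 3 of 13 were negative and none positive, namely Igfbp2 (-0.93 ± 0.24, adjusted p = 0.126), Insr (-0.57 ± 0.16, adjusted p = 0.140) and Igf1r (-0.43). DESeq2 called 1 negative member in the WNT list, 1 in the insulin and IGF list and none in the granulosa list, and limma-voom none in the 3 lists.

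Lists of follicle and oocyte function gave little. None of the 20 oocyte genes had an unadjusted p of at most 0.05, nor did any pass by edgeR, DESeq2 or limma-voom, although 15 were positive and the median was 0.39 (0.22 without ctrl estrus replicate 5, and 0.16 without FL1 estrus replicate 1). Bmp15 (0.74 ± 0.41) and Gdf9 (0.69 ± 0.39), growth factors made by oocytes, were nearest. Of 29 cell cycle genes 23 were positive with a median of 0.32, which fell to 0.11 without ctrl estrus replicate 5, and 2 had an unadjusted p of at most 0.05 (Tyms, 0.86, and Ccnb2, 0.68). Of 13 genes of cumulus expansion and ovulation only Rgs2 did (0.87 ± 0.28, SE), with a median of 0.19 that was 0.38, with 2 members, without ctrl estrus replicate 5. Of 19 matrix proteases and inhibitors 4 were positive, led by Mmp9 (1.92 ± 0.51, SE, adjusted p = 0.129), and 2 negative (Timp3, -0.50, and Timp2, -0.42), with a median of 0.38 (0.24 without that library).

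Some lists had line or stage medians far from 0 and a median interaction near 0. Of 20 interferon-stimulated genes, 2 were called between lines in estrus and none in diestrus (edgeR), against 3.75% and 3.46% of all genes. Their line medians were -0.62 in estrus and -0.52 in diestrus, with a median interaction of -0.02. That median ran from -0.28 without ctrl diestrus replicate 2 to 0.12 without ctrl estrus replicate 5. Isg15 had the same log2FC of -1.08 at both stages, with an interaction of 0.00 ± 0.52 (SE). Of the 22 genes of collagens and structural matrix, 13 in ctrl and 12 in FL1 were called higher in estrus, against 533 and 697 of all 14154 genes. The stage medians were 0.59 in ctrl and 0.51 in FL1, and the median interaction was -0.06, with and without ctrl estrus replicate 5. Col3a1 had a stage log2FC of 1.24 in each line.

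**Figure D5:**
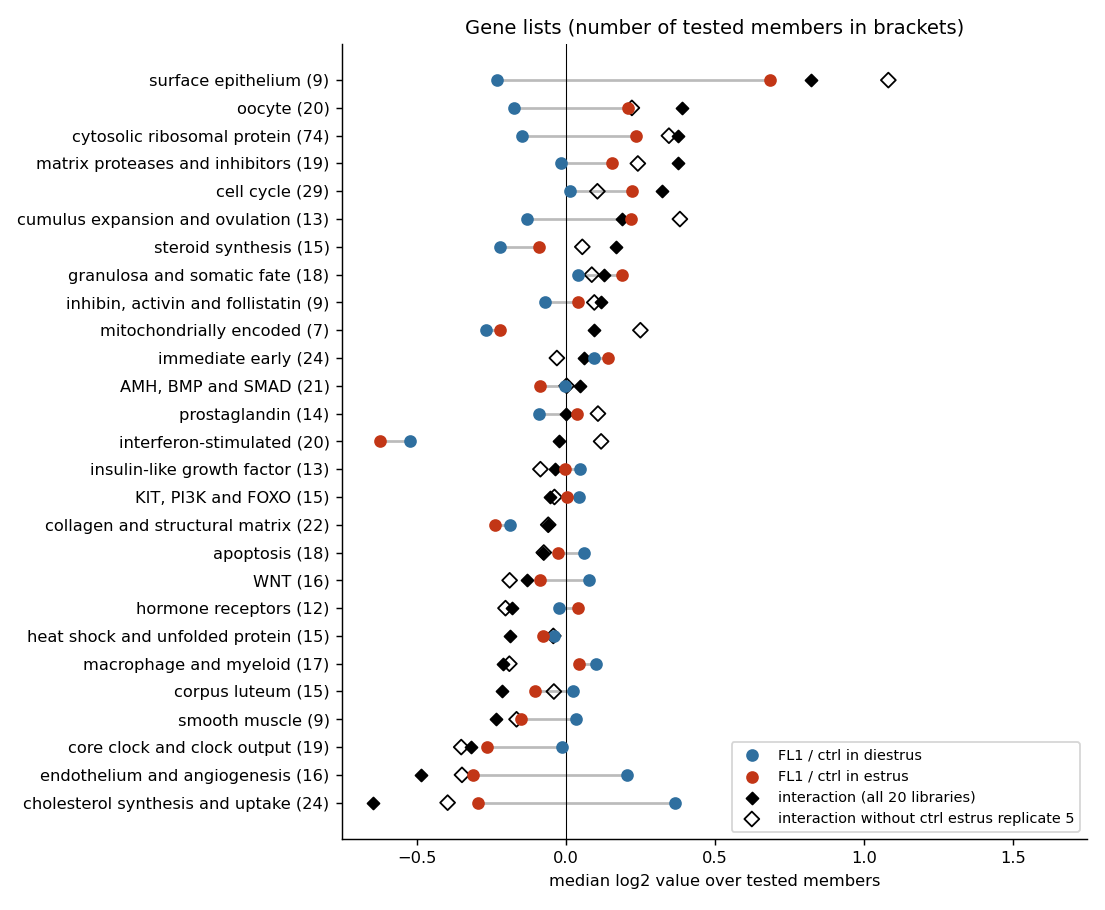
Median log2 value over the tested members of 25 ovarian gene lists and 2 cell type marker lists. Circles are the medians of FL1 against ctrl in each stage, filled diamonds the median interaction over all 20 libraries and open diamonds the same without ctrl estrus replicate 5. Surface epithelium has the highest interaction (0.82) and cholesterol synthesis the lowest (-0.65).

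The remaining lists held few members at an unadjusted p of at most 0.05, with counts of positive and negative members in that order. They were 1 and 3 of 15 for the corpus luteum (median -0.21, and -0.04 without ctrl estrus replicate 5), 2 and 1 of 24 for immediate early genes, 1 and 1 of 14 for prostaglandins, 0 and 0 of 17 for macrophages, 0 and 0 of 15 for KIT, PI3K and FOXO, 0 and 1 of 18 for apoptosis, 0 and 2 of 15 for heat shock, 1 and 0 of 7 for mitochondrially encoded genes and 0 and 1 of 22 for collagens. Among these were Ptger3 (2.36), Atf3 (1.65) and Bbc3 (-1.12). The medians over all libraries and without ctrl estrus replicate 5 were 0.06 and -0.03 for immediate early genes, 0.00 and 0.11 for prostaglandins, -0.21 and -0.19 for macrophages, and -0.05 and -0.04 for KIT, PI3K and FOXO. They were -0.08 and -0.07 for apoptosis, -0.19 and -0.04 for heat shock and 0.10 and 0.25 for mitochondrially encoded genes.

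The genes that the study listed as reproductive genes were looked up as well. They were chosen on these samples for their line difference at 1 stage, so a line difference that is larger at that stage is not independent evidence. Of 22 genes listed for estrus, 6 were positive and 4 negative at an unadjusted p of at most 0.05 and none passed the adjusted test, with DESeq2 calling 5. Of 30 listed for diestrus, 3 were positive and 14 negative, and 2 passed (Klf3 and Slc30a1), with DESeq2 calling 7. The medians were -0.01 and -0.41, and 0.01 and -0.37 without ctrl estrus replicate 5.

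Tex14, needed for intercellular bridges of germ cells, had an interaction of 2.07 ± 0.48 (SE, adjusted p = 0.107, edgeR), with 7.34 ± 2.51 CPM in ctrl estrus and 30.3 ± 17.2, 35.8 ± 9.19 and 34.9 ± 16.9 CPM in FL1 estrus, ctrl diestrus and FL1 diestrus (SD, n = 5). Like Gm15866, it was low in ctrl estrus alone. Other listed genes had line differences of the same sign at both stages. Hpgd, which degrades prostaglandins, had a log2FC of -1.38 in estrus and in diestrus with an interaction of 0.00 ± 0.22 (SE), and Rpl29 had -5.27 and -5.88 with an interaction of 0.61 ± 0.57 (SE). For Rpl29, 77.2% of the 31-nt words at the transcript ends occur in other genes, so its counts are uncertain.

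The other marker lists had at most 2 members at an unadjusted p of at most 0.05. Smooth muscle markers had 2 negative and no positive of 9 members (median -0.23, and -0.17 without ctrl estrus replicate 5), with summed levels of 1378 to 1892 CPM in ctrl estrus, 1344 to 1790 in FL1 estrus, 838 to 1514 in ctrl diestrus and 952 to 1545 in FL1 diestrus. Fat markers had 1 negative and no positive of 7 tested members (median -0.53, and 0.38 without ctrl estrus replicate 5), and Lep and Pck1 had a count in 3 and 8 libraries. Red blood cell markers had no member of 5 at an unadjusted p of at most 0.05 (median -0.15, and -0.02 without that library), with 440 to 3519 CPM in diestrus and 768 to 1668 CPM in estrus. The part of these cell types in the interaction was not tested.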

How the data were processed

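The authors prepared QuantSeq 3' mRNA-Seq forward libraries, 1 animal each, mapped the trimmed reads to the GRCm38 assembly using STAR, and tallied uniquely assigned reads for each Ensembl gene. The authors deposited raw counts, 1 table per library, without normalization or pooling. The submitters' processing notes also name Cuffdiff. The counting tool and its strand setting are not given in the sources used here. Reads gather at the 3' end, and the tests of line, stage and interaction were made within each gene. CPM were also summed or set side by side over genes, as for the marker lists, to describe the libraries.

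Groups and replicate numbers came from the sample titles and characteristics. The source name reads FL1 for all libraries and was not used. Symbols came from GENCODE M21. Genes passing filterByExpr (minimum count 10) were tested in 1 fit of all 20 libraries by edgeR 4.0.16 (TMM, glmQLFit, glmQLFTest, R 4.3.3), with the interaction, line and stage contrasts and Benjamini-Hochberg adjustment over the 14154 genes. The SE is the log2FC divided by the square root of F. The paper compared the lines within each stage and fitted no interaction. The p-values measure the spread between these animals. The script was tested on simulated data. Lists were described by counts and medians. Genes and lists were chosen with earlier results of these data known. Named genes were those past the threshold, the next by p up to 30 in all, up to 4 members with the smallest p per list, any member of the hormone, steroid, SMAD, clock and ovulation lists, and the study's listed genes. Others named beside a list were chosen after their values were seen. Replicates of a group differed by more than sampling noise (chi-square per gene 6.07 to 43.9). No molecular identifiers are named, so counts are reads. Alternatives were RLE size factors, DESeq2 1.42.0, limma-voom (limma 3.58.1) with sample weights, a robust fit, other filters, the replicate number as a block, only the compared groups, and each library left out. Figures were drawn with matplotlib 3.10.9 in Python 3.11.15. Some genes that the rule names are not reported here.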

Additional observations from a re-analysis of the deposited data

Results flagged for a closer look

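For 8 genes the effect of line differed between the stages by the test of the difference itself (edgeR, adjusted p of at most 0.05). On the log2 scale the interactions were 2.98 for Gm15866, 1.33 for Olfml2b, 1.15 for Echdc2, -2.68 for Tns4, -1.14 for Slc30a1, -0.97 for Plcb4, -0.94 for Klf3 and -0.67 for Taok1.

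Single ovaries far from the other 4 of their group were looked for in 260 groups of values (Dixon's test), of which chance flags about 1 in 20, and 19 were found. Among the cholesterol genes, FL1 estrus replicate 3 was high for Hsd17b7 (128 CPM), FL1 estrus replicate 5 was high for Insig1 (14.4 CPM), and for Npc2 ctrl estrus replicate 5 was high (802 CPM) and FL1 diestrus replicate 4 low (858 CPM). FL1 diestrus replicate 2 was low for Kdr (125 CPM) and for Lhcgr (341 CPM), and ctrl diestrus replicate 5 was high for Lepr (8.91 CPM) and Styx (5.99 CPM). FL1 diestrus replicate 4 was high for Tns4 (10.5 CPM), FL1 estrus replicate 1 for Hsd17b2 (21.6 CPM), and FL1 estrus replicate 3 for Hlf (13.1 CPM) and Dynll2 (390 CPM). Ctrl diestrus replicate 2 was low for Rps3 (945 CPM) and ctrl diestrus replicate 3 for Itga9 (131 CPM).

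Among the marker sums, ctrl estrus replicate 5 was high for fat (544 CPM), ctrl estrus replicate 2 for neutrophil genes (9.60 CPM), FL1 diestrus replicate 3 for oviduct genes (19.4 CPM), and ctrl diestrus replicate 1 for smooth muscle (1514 CPM) and for ovarian identity genes (3937 CPM).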

How the results depend on the processing

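The count of 8 genes for the interaction was the least stable result. It was 148 by DESeq2's Wald test, 31 by limma-voom with sample weights and 17 with no filter on low counts, and 0 to 15 when single libraries were left out, with 15 also without FL1 estrus replicate 3. With RLE size factors it was 8, with the robust dispersion 10 and with at least 10 counts in every library 6. The line difference in estrus gave 311 genes with only the 2 groups compared and 310 to 565 with single libraries left out, lowest without FL1 estrus replicate 1. The stage difference in ctrl gave 380 with its 2 groups alone and 565 to 980 with single libraries left out, lowest without ctrl diestrus replicate 4, and the stage difference in FL1 gave 2387 by limma-voom. The causes were not tested. Among the 30 genes with the smallest p, no interaction changed sign under the alternatives run, and the other genes were not put through all of them. Groups share replicate numbers, and deviations of same-numbered libraries correlated between -0.0995 and 0.213. Those of replicate 1 were all positive (0.0183 to 0.213). Differently numbered libraries were not compared, so whether the numbers stand for a shared factor was not tested. With the replicate block 12 genes passed, 7 of the 8 among them, and Slc30a1 did not (adjusted p = 0.0557). Genes with few counts, such as Gm15866 and Klk1 in ctrl estrus, are limited by depth.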

Other observations

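The nuclear genes of mitochondria, 2 lists drawn up after values had been seen, mostly had positive interactions. Of 75 tested genes of mitochondrial ribosomal proteins 64 were positive, 16 of them and no negative one at an unadjusted p of at most 0.05, with a median of 0.18. Of 89 nuclear genes of the respiratory chain 80 were positive, 17 of them and no negative one at that threshold, with a median of 0.20. No member of either list passed the adjusted test by edgeR, while DESeq2 called 4 and 2 and limma-voom 2 and 1. Without ctrl estrus replicate 5 the medians were 0.22 and 0.25, with 21 positive and no negative members in the first list and 31 positive and 1 negative in the second at the unadjusted threshold.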
